A study of Homo sapiens with 12 samples.

Results

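MicroRNAs were compared between metformin and vehicle in SUM159 cells that stably carried a scrambled control shRNA, on 6 of the 12 arrays of the series. SUM159 is a human triple-negative breast cancer cell line, so every array holds RNA of 1 line transduced with a pLKO.1 lentiviral vector. The 3 arrays titled as control cells with metformin (0.5 mM for 24 h) were set against the 3 titled as control cells without it, which received PBS as vehicle. Metformin is a drug against type 2 diabetes, and the series also holds 6 arrays of the same line with an shRNA against Dicer. The source names of both metformin groups conflict with their titles, since that of the control cells with metformin reads untreated and that of the Dicer shRNA cells with metformin names treated control cells. The groups follow the titles. The arrays of the vehicle groups all lay on slide 1 and those of the metformin groups on slide 2. Metformin and slide therefore cannot be told apart in any value below. The labels call the replicates biological, but nothing says that they came from separate cultures on separate days, so p-values measure the spread between these samples.

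MicroRNAs are short RNAs cut from hairpin precursors by Drosha in the nucleus and by Dicer in the cytoplasm. One arm of the hairpin is usually kept by an Argonaute protein, and the other, written with a star in older names, is usually degraded. Bases 2 to 8 of the kept arm form the seed, which pairs with target mRNAs, and microRNAs with the same seed form a family. The arrays carried 851 human names, of which 247 were detected on at least 1 of the 6 arrays, 102 on all 6, and 208 passed the filter for testing (detection on all 3 arrays of at least 1 of the 4 groups of the series).

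Mature sequences were found in RefSeq (GRCh38.p14) for 180 of the 207 distinct signals tested, 68 under the same name and 112 under an older name. They are written 5′ to 3′ with the seed in capitals. The following are a selection from the 10 largest losses and the 10 largest gains among the microRNAs measured on all 6 arrays. Others of these, such as miR-221, miR-222 and miR-320c, are shown further below. The first 4 were lower with metformin and the next 6 higher.
miR-21: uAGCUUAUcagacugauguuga
miR-24: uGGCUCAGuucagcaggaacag
miR-100: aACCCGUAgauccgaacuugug
miR-205: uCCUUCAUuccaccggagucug
miR-1275: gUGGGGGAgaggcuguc
miR-630: aGUAUUCUguaccagggaaggu
miR-198: gGUCCAGAggggagauagguuc
miR-1181: cCGUCGCCgccacccgagccg
miR-1915: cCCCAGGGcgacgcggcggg
miR-663: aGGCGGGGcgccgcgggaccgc

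The miR-21 sequence lies at chr17:59841273-59841294 on the plus strand, within the bounds of VMP1. The miR-1275 sequence lies at chr6:34000018-34000034 on the minus strand, in no other gene of the table. The miR-630 sequence lies at chr15:72587277-72587298 on the plus strand within ARIH1, and that of miR-198 at chr3:120395703-120395724 on the minus strand within FSTL1. Further sets show families that share a seed and moved together, a family whose members parted, and arms of 1 hairpin that parted. The let-7 family and the pair of miR-221 and miR-222 were lower throughout.
let-7a: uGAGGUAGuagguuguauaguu
let-7b: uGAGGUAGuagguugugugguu
let-7c: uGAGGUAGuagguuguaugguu
let-7f: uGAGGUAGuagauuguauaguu
miR-221: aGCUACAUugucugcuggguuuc
miR-222: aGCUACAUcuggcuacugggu

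The 3 members of the miR-320 family shown differ only in their 3′ ends.
miR-320b: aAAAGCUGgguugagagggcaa
miR-320c: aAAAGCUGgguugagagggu
miR-320d: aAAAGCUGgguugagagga

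Of the arms below, let-7f-1*, miR-125a-3p and miR-425* were higher with metformin and miR-125a-5p was lower. The arms of 1 hairpin differ in their seeds.
let-7f-1*: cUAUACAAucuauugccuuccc
miR-125a-5p: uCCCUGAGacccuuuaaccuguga
miR-125a-3p: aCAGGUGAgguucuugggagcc
miR-425*: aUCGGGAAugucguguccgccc

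The labelled cell type was checked against marker microRNAs. Of 10 microRNAs abundant in mesenchymal breast lines, 9 were detected under vehicle, with a summed scaled signal of 2724 to 3051 per array, and miR-31 was not detected on the 6 arrays. Of the miR-200 family, which marks epithelial cells, no member was detected on the 6 arrays. MiR-205, which is also counted as epithelial, was bright at 620 to 645 under vehicle. Markers of liver (2 names) and of pluripotent cells (8 names) were not detected on any of the 6 arrays.

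Signals were divided by each array's 75th percentile over the 98 human names detected on all 12 arrays, and values under a floor of 3.01 were set to it. A value is therefore relative to the other microRNAs of its array, and less microRNA per cell cannot be told apart from a shift against the rest. The vehicle arrays detected 176, 204 and 182 human names (187 ± 14.7, SD, n = 3) and the metformin arrays 159, 151 and 163 (158 ± 6.11, SD, n = 3). The difference of 29.7 names had p = 0.10 in a two-sided exact permutation test, the smallest p that 3 against 3 arrays can give. Without miR-923, the summed scaled human signal was 23600 to 25712 under vehicle and 38387 to 42458 with metformin. Features that are not human microRNAs also moved. All 10 viral names detected on all 12 arrays were higher on the metformin arrays (median difference 1.38 log2, range 0.86 to 3.21), with no overlap between groups. The 5 control features named hur were all lower (median -3.07, range -5.03 to -0.86), and so was the control feature mr_1 (-3.19). In the Dicer shRNA line, on the same slides, the medians were 0.34 for the viral names and -0.76 for the hur features. Their part in the results was not tested.

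Of the 208 names tested, 183 passed at an adjusted p under 0.05 (88.0%, limma with Benjamini-Hochberg adjustment), 99 higher with metformin (47.6%) and 84 lower (40.4%). For 191 names (91.8%) no metformin array lay within the range of the vehicle arrays. These shares are the background against which each count below is read. The split depends on the scaling. It was 44 higher and 117 lower when arrays were scaled to the viral names, and 126 higher and 54 lower when they were scaled to entries later reclassified as fragments of other RNAs. The median difference over all tested names was 0.52 log2 with the scaling used here, -0.91 with the viral names and 2.09 with the reclassified entries. The median called loss was -2.67 log2 and the median called gain 1.56, and 38 names were lower by 3 or more on the log2 scale against 3 that were higher by as much. This order of sizes turned under the scaling to reclassified entries, where the medians were -2.63 and 2.80 and the counts 24 and 50.

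**Figure D1:**
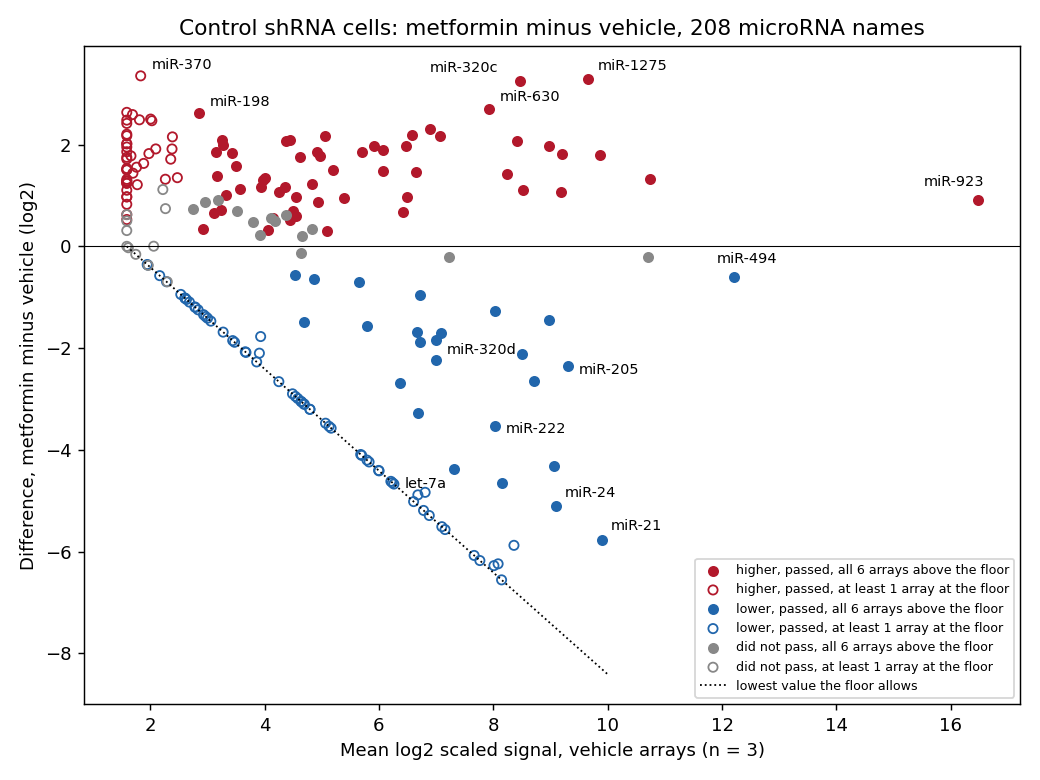
Mean log2 scaled signal on the 3 vehicle arrays (x axis) against the difference, metformin minus vehicle in log2 (y axis), for 208 microRNA names, with red and blue for calls, grey for names that did not pass and open circles for names with an array at the floor. Many of the losses lie on the dotted line, which is the lowest difference that the floor allows, while miR-1275 and miR-320c stand highest among the bright names.

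Among the 102 names detected on all 6 arrays, 86 passed (84.3%), 61 higher and 25 lower. Of the 34 dimmest of these under vehicle, 24 were higher and none was lower. Of the 34 brightest, 14 were higher and 18 lower. A dim name that was lost with metformin is not in this set, so the count of dim losses is limited by the choice of names.

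The largest loss on all 6 arrays was that of miR-21, an abundant microRNA of many carcinomas. Its scaled signal was 954, 869 and 1059 under vehicle and 14.1, 27.2 and 14.4 with metformin, a loss of 5.76 ± 0.27 log2 (SE, 54.2-fold, adjusted p = 1.6e-08). The groups lie far apart on every array. Among the human names other than miR-923, it held 3.87% of the summed signal under vehicle and rank 4, and rank 85 with metformin.

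MiR-24 and miR-23a are made with miR-27a from 1 transcript on chromosome 19, and miR-24 from another locus too. Both were lower. The signal of miR-24 was 526, 530 and 591 under vehicle and 11.5, 23.1 and 15.1 with metformin (-5.11 ± 0.25 log2, SE, adjusted p = 1.9e-08). Without metformin replicate 1, which was the lowest of the 3 for miR-24, miR-100, miR-221 and miR-1308, the difference was -4.51 for miR-24, -3.91 for miR-100, -3.61 for miR-221 and -2.06 for miR-1308. The signal of miR-23a was 498, 522 and 575 under vehicle and 21.8, 29.2 and 29.8 with metformin (-4.32 ± 0.14, adjusted p = 7.7e-10).

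MiR-100, whose targets include MTOR, went from 285, 289 and 275 to 6.76, 16.2 and 13.3 (-4.64 ± 0.27 log2, adjusted p = 5.5e-08 in limma). MiR-221 and miR-222 come from 1 cluster on the X chromosome, share a seed and target the cell cycle inhibitor CDKN1B. MiR-221 went from 152, 159 and 167 to 4.40, 11.1 and 9.30 (-4.37 ± 0.30), and miR-222 from 265, 257 and 259 to 18.6, 27.3 and 23.0 (-3.52 ± 0.13). MiR-1287 and miR-205 were lower by less, with -2.68 ± 0.14 and -2.36 ± 0.13. MiR-205 remained well measured, at 106, 131 and 134 with metformin.

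**Figure D2:**
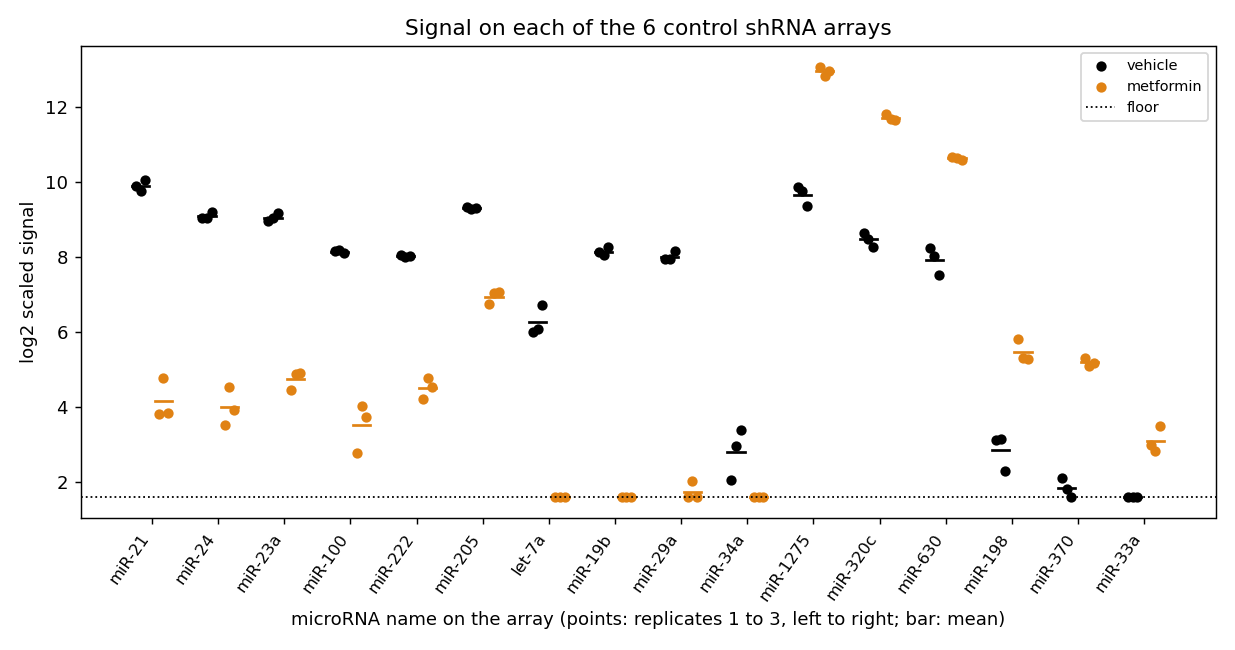
Log2 scaled signal (y axis) of 16 microRNAs (x axis) on each of the 3 vehicle arrays (black) and 3 metformin arrays (orange), with bars at the group means and a dotted line at the floor. No microRNA shown has overlapping groups, and let-7a, miR-19b and miR-34a lie at the floor on all 3 metformin arrays.

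For 54 names detection was complete under vehicle and absent with metformin, and a loss there is a lower bound set by the floor. Such a name could not pass as higher, which limits what the counts of lower members in the lists below can show. The largest bound was that of miR-19b, a member of the miR-17/92 cluster, which read 280, 263 and 308 under vehicle and was not detected on any metformin array (at least 94.0-fold lower, adjusted p = 1.4e-07 in limma). MiR-27a, at 182, 197 and 286 under vehicle, was at least 72.2-fold lower, and miR-15b, at 185, 197 and 229, at least 67.4-fold lower. MiR-23b, miR-146a and miR-27b were at least 47.4-fold, 45.6-fold and 39.1-fold lower. All 6 were among the brighter names under vehicle, each above 100 on every vehicle array. A group at the floor has no spread of its own, so the errors of such names are understated. The bounds here and below hold only for the scaling and floor used. Over the alternatives, miR-19b ran from -8.24 to -4.21 log2, miR-27a from -7.82 to -3.86 and miR-15b from -7.67 to -3.76.

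Every tested member of the let-7 family, which restrains RAS and MYC in many cells, was lower. Of 9 names, 6 were tested and all 6 fell (median -4.07 log2, against 0.52 over all tested names). Let-7a, let-7c, let-7f, let-7g and let-7i were detected on no metformin array, so they could not have passed as higher. Let-7d and let-7e were detected on 1 and 2 vehicle arrays and on no metformin array, and were not tested. Let-7a read 64.1, 67.3 and 105 under vehicle and was not detected with metformin (at least 25.5-fold lower, limma adjusted p = 1.3e-06). Let-7b was brighter, at 287, 313 and 394, and was detected on 2 metformin arrays at 4.34 and 13.4, a difference of -5.88 ± 0.45 that is limited by the floor on the other array. Its difference was -5.07 without metformin replicate 1 and -6.52 without metformin replicate 3. Let-7c was at least 36.5-fold lower and let-7f at least 8.61-fold lower. The weakest loss of the family was that of let-7g (-1.19), which read 5.13 to 11.4 under vehicle, near the floor. Its call was lost with quantile normalization (-0.42), the reclassified entries (-0.42) and a floor at the 10th percentile (-0.56), and under the first and the second of these 5 of the 6 members passed.

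The miR-17/92 cluster and its paralogs, which are known for driving proliferation, had 10 tested members, all 10 lower (median -3.80 log2), of which 9 passed with quantile normalization and 8 with the reclassified entries. Besides miR-19b, miR-25 went from 99.7, 99.4 and 109 to detection on 1 metformin array at 4.62 (-4.88 ± 0.17, adjusted p = 1.2e-09 in limma). The difference of miR-25 is limited by the floor on the other metformin arrays. MiR-106b and miR-93, which share the miR-25 hairpin cluster in MCM7, read 70.8 to 82.6 and 68.5 to 77.2 under vehicle and were not detected with metformin. The 5 members of the miR-23/27/24 clusters were all lower (median -5.29), and so were the 3 of the miR-29 family (median -3.57), which targets collagens and DNA methyltransferases. MiR-29a went from 245, 244 and 286 to detection on 1 metformin array at 4.08 (-6.27 ± 0.18, limited by the floor on the other metformin arrays).

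Of the group of miR-15, miR-16, miR-103 and miR-107, 5 names were tested and all 5 were lower (median -2.99 log2). MiR-103 and miR-107, which target the Dicer mRNA and lie in introns of PANK genes, differ at 1 of 23 bases. MiR-103 read 53.3, 51.8 and 61.4 under vehicle and was not detected with metformin (at least 18.4-fold lower). MiR-107, at 20.7, 21.8 and 30.3, was at least 7.95-fold lower, and ran from -4.55 to -1.31 log2 over the alternatives. MiR-16, which represses BCL2 and cyclins, was dim under vehicle, at 14.5, 13.2 and 18.5. It was detected on 1 metformin array at 9.81 and is limited by the floor on the others (-1.77 ± 0.38, limma adjusted p = 0.0013). That call was lost under the scaling to reclassified entries (-0.50).

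The miR-99/100 and miR-125 group had 5 tested members, all lower (median -3.05 log2). MiR-125b went from 259, 258 and 298 to detection on 1 metformin array at 5.11 (-6.24 ± 0.34, limma adjusted p = 4.1e-08). That difference is limited by the floor on the other metformin arrays. Of the miR-30 and miR-26 families, 5 of 6 tested members were lower (median -1.45), led by miR-26a. With quantile normalization 3 were lower and 1 was higher, and with the reclassified entries 2 were lower and 1 was higher. MiR-26a read 93.2, 97.1 and 102 under vehicle and was at least 32.4-fold lower. MiR-30e was at least 4.83-fold lower. Both tested members of the miR-130 and miR-301 family and both of the miR-181 family were lower as well. MiR-181a read 122 to 149 under vehicle and 39.9 to 44.3 with metformin (-1.71 ± 0.13), a direction that turned to 0.11 under the scaling to reclassified entries.

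The oncogenic and inflammatory group of miR-221, miR-222, miR-21, miR-155 and miR-146a had 4 lower members and 1 higher. The exception was miR-155, an NF-kB-induced microRNA, which read 37.0, 32.6 and 33.2 under vehicle and 45.2, 40.1 and 42.2 with metformin (0.31 ± 0.10 log2, adjusted p = 0.017 in limma). The gap is small, and it was -0.06 with no scaling and -1.24 with the viral names. Of 9 names linked to p53, 2 were tested, and both were lower. One of them, miR-34a, a direct p53 target that represses MET and CDK6, read 4.12, 7.75 and 10.4 under vehicle and was not detected with metformin (at least 2.30-fold lower, adjusted p = 0.0013). Its call was lost with quantile normalization (-0.33) and with the reclassified entries (-0.50). The summed signal of the mesenchymal markers went from 2724 to 3051 under vehicle down to 237 to 369 with metformin, with 8 of 9 tested members lower.

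**Figure D3:**
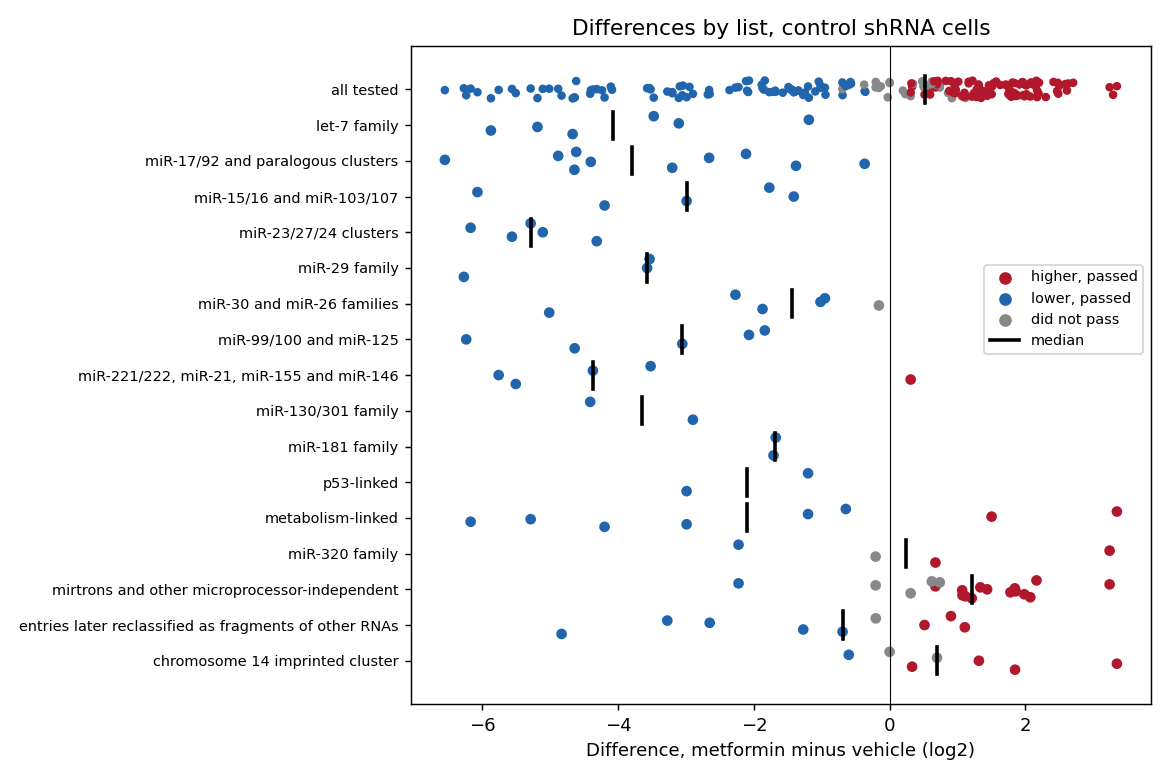
Difference, metformin minus vehicle in log2 (x axis), of the tested members of each list (y axis), with red and blue for calls, grey for names that did not pass and a black bar at each median. The let-7, miR-17/92, miR-23/27/24 and miR-29 lists lie wholly below 0, while the microprocessor-independent list has its median at 1.21.

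The largest gain among names on all 6 arrays was that of miR-1275. Its signal was 932, 865 and 661 under vehicle and 8541, 7346 and 8015 with metformin, a gain of 3.29 ± 0.16 log2 (SE, 9.81-fold, adjusted p = 1.9e-08 in limma). It held 3.28% of the summed signal without miR-923 under vehicle and 19.6% with metformin, where it ranked first. MiR-630 went from 303, 261 and 182 to 1620, 1611 and 1530 (2.71 ± 0.21, adjusted p = 5.4e-07), and miR-198 from 8.66, 8.80 and 4.89 to 56.4, 39.4 and 38.5 (2.61 ± 0.27). No vehicle array came near the metformin arrays for any of the 3.

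A further 6 names rose between 2.09 and 2.30 on the log2 scale. MiR-1181 went from 122, 129 and 106 to 577, 540 and 645 (2.30 ± 0.13). MiR-1915 went from 154, 152 and 104 to 603, 551 and 678 (2.18 ± 0.17). MiR-135a* (2.20 ± 0.15), miR-939 (2.17 ± 0.14), miR-663 (2.09 ± 0.17) and miR-564 (2.09 ± 0.35) rose by like amounts, each with adjusted p of 0.00023 or lower in limma. The 10 largest gains and the 10 largest losses on all 6 arrays kept their direction and their call under each scaling, floor, filter, weighting and left-out array in which they were tested.

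Detection was absent under vehicle and complete with metformin for 21 names, all dim. These names could not pass as lower. MiR-708 read 14.7, 15.8 and 17.9 with metformin (at least 5.34-fold higher, limma adjusted p = 0.0014), and miR-10b* was at least 4.51-fold higher. MiR-129-3p, miR-425*, miR-664 and miR-1306 were at least 4.05-fold, 4.04-fold, 3.87-fold and 3.36-fold higher. MiR-370, of the imprinted cluster on chromosome 14, was detected on 2 vehicle arrays at 4.31 and 3.49 and on all metformin arrays at 39.2, 34.0 and 36.0 (3.35 ± 0.24, limited by the floor on 1 array). Of the 35 names listed for that cluster 7 were tested, 4 higher and 1 lower (median 0.70), against 2 higher and 3 lower with the viral names. One of the 4, miR-345 (0.33 ± 0.14, adjusted p = 0.042 in limma), starts at chr14:100307876, well ahead of miR-370 at chr14:100911186. Whether it belongs to the cluster was not checked.

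MiR-33a lies in an intron of SREBF2, the sterol regulator, and represses cholesterol export by ABCA1. It was not detected under vehicle and read 7.81, 7.06 and 11.3 with metformin (at least 2.84-fold higher, adjusted p = 9.5e-05 in limma). The array entry miR-33b* had the same signal as miR-33a on every array, so the value belongs to the pair. Of the 8 tested names linked to lipid and glucose metabolism, 2 were higher (miR-33a and miR-370) and 6 lower (median -2.10). The lower ones were miR-27a, miR-27b, miR-103, miR-107, miR-34a and miR-378. The loss of miR-378 was small (-0.64 ± 0.15). It was -0.17 and no longer passed without metformin replicate 1, and it was 1.18 under the scaling to reclassified entries.

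Small signals of microRNAs typical of other tissues appeared on the metformin arrays. Of 8 blood cell names, miR-223 and miR-486-5p were tested, with a summed signal of 0 under vehicle and 15.2 to 20.4 with metformin. The defining red cell marker miR-451 was not detected on any of the 6 arrays. Of 7 muscle names, miR-133a and miR-133b were tested, with a summed signal of 0 to 4.41 under vehicle and 24.9 to 29.9 with metformin, while miR-1 and miR-206 were not detected. Of 10 brain names, 2 were tested and went opposite ways. MiR-128 read 5.10 to 7.05 under vehicle and was not detected with metformin (-0.94 ± 0.11, a bound set by the floor, with the call lost under quantile normalization and the reclassified entries), whereas miR-129-3p was detected with metformin alone, at 10.4 to 13.6. MiR-124 and miR-9 were not detected. These levels are low against the bright names above, and their origin was not tested.

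Entries that were later reclassified as fragments of other RNAs moved both ways, with 3 higher and 5 lower of 9 tested (median -0.69 log2). MiR-923, a fragment of ribosomal RNA, alone held 77.8% to 79.1% of the human signal under vehicle and 79.5% to 82.3% with metformin. Its scaled signal was 95304, 88740 and 89179 under vehicle and 168868, 177908 and 164628 with metformin (0.90 ± 0.09, adjusted p = 3.0e-06), a direction that turned to -0.65 with the viral names. MiR-1246, from the U2 small nuclear RNA, was lower (-4.83 ± 0.16), as were miR-1826 (-3.28 ± 0.28) and miR-1308 (-2.65 ± 0.20). MiR-1246 was detected on 2 metformin arrays, at 4.44 and 4.52, so its difference is limited by the floor on the other. Of the 6 brightest names on all 6 arrays that did not pass, miR-720 read 1612, 1665 and 1714 under vehicle and 1355, 1675 and 1329 with metformin (-0.20 ± 0.12, adjusted p = 0.14), with overlapping groups. MiR-320b, miR-574-3p, miR-197, miR-548f and miR-365 were the others, with differences from -0.21 to 0.62.

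Some hairpins skip Drosha. Of 19 tested mirtrons and other microprocessor-independent names, 14 were higher and 1 lower (median 1.21 log2). With the viral names 4 were higher and 5 lower (median -0.21). The miR-320 family was put on this list as a whole, though miR-320b, miR-320c and miR-320d lie at separate loci. Whether each of them is made without Drosha was not checked. The 4 members of the family parted. MiR-320c went from 402, 359 and 310 to 3599, 3280 and 3216 (3.24 ± 0.17, adjusted p = 2.9e-08 in limma), and its rank by share of signal from 17 to 3. MiR-320a rose little, from 98.1, 93.7 and 69.3 to 144, 127 and 142 (0.68 ± 0.14), and was -0.87 with the viral names. MiR-320b read 160, 157 and 133 against 134, 124 and 132 (-0.21 ± 0.13, adjusted p = 0.16). MiR-320d fell from 123, 123 and 134 to 24.6, 24.9 and 32.6 (-2.23 ± 0.13, adjusted p = 6.1e-08), a call that was lost under the scaling to reclassified entries (-0.40). In the sequences shown above, miR-320b and miR-320c share their first 19 bases and miR-320c and miR-320d their first 18. Probes of such near-identical family members, here and in let-7, miR-29 or miR-103 and miR-107, may read more than 1 of them, which was not tested.

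Both arms were tested for 20 hairpins, counted after the values were seen. In 7 of them 1 arm was lower and the other higher with both calls made, in 6 both arms moved the same way, and in 7 at least 1 arm did not pass. Over all tested names 47.6% were higher and 40.4% lower, so opposite calls can be frequent between unrelated names too. The count of 7 parted pairs was not tested against that. In these 7 it was the arm named without a star, or named as 5p for miR-125a and as 3p for miR-423, that was lower. MiR-21* read 102, 100 and 71.4 under vehicle and 185, 184 and 163 with metformin (0.98 ± 0.18 log2), against the 5.76 loss of miR-21. MiR-125a-3p went from 36.6, 32.8 and 22.8 to between 103 and 115 (1.85 ± 0.19), whereas miR-125a-5p, at 22.6, 24.9 and 27.7, was not detected with metformin (at least 8.31-fold lower). MiR-425 was at least 8.26-fold lower while miR-425* was at least 4.04-fold higher. Let-7f-1* rose by 1.35 ± 0.34. The values of miR-30c (-1.02), miR-30c-1* (0.63) and miR-423-3p (-1.02) are bounds set by the floor, unlike that of miR-423-5p (0.96). The size of these gaps is therefore not known. In the pairs of miR-30c and miR-425, 1 arm lay at the floor on all metformin arrays and the star arm on all vehicle arrays. Neither arm of these pairs could have moved the other way. MiR-18b was near the floor under vehicle (3.47 to 4.63, -0.37) and miR-18b* was detected on 1 vehicle array at 7.49 and on the metformin arrays at 21.0 to 25.5 (2.47 ± 0.50). The direction of the higher arm depends on the scaling. With the viral names 4 of these 7 pairs kept opposite signs, with let-7f-1* at -0.05, miR-21* at -0.57 and miR-423-5p at -0.59. With the reclassified entries 5 kept them. Calls of the dimmer arms were lost under several alternatives. That of miR-18b was lost without metformin replicate 1 (-0.18), and its difference was 0 with quantile normalization, the reclassified entries and a floor at the 10th percentile. That of miR-30c-1* was lost with no scaling (0.32), quantile normalization (0.32), the viral names (0.13) and a floor at the 10th percentile (0.13). That of miR-30c was lost with quantile normalization (-0.11) and the reclassified entries (-0.25), and that of miR-423-3p with quantile normalization (-0.13), the reclassified entries (0.31) and the series matrix (-1.25). That of miR-125a-3p was lost with the viral names (0.30).

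**Figure D4:**
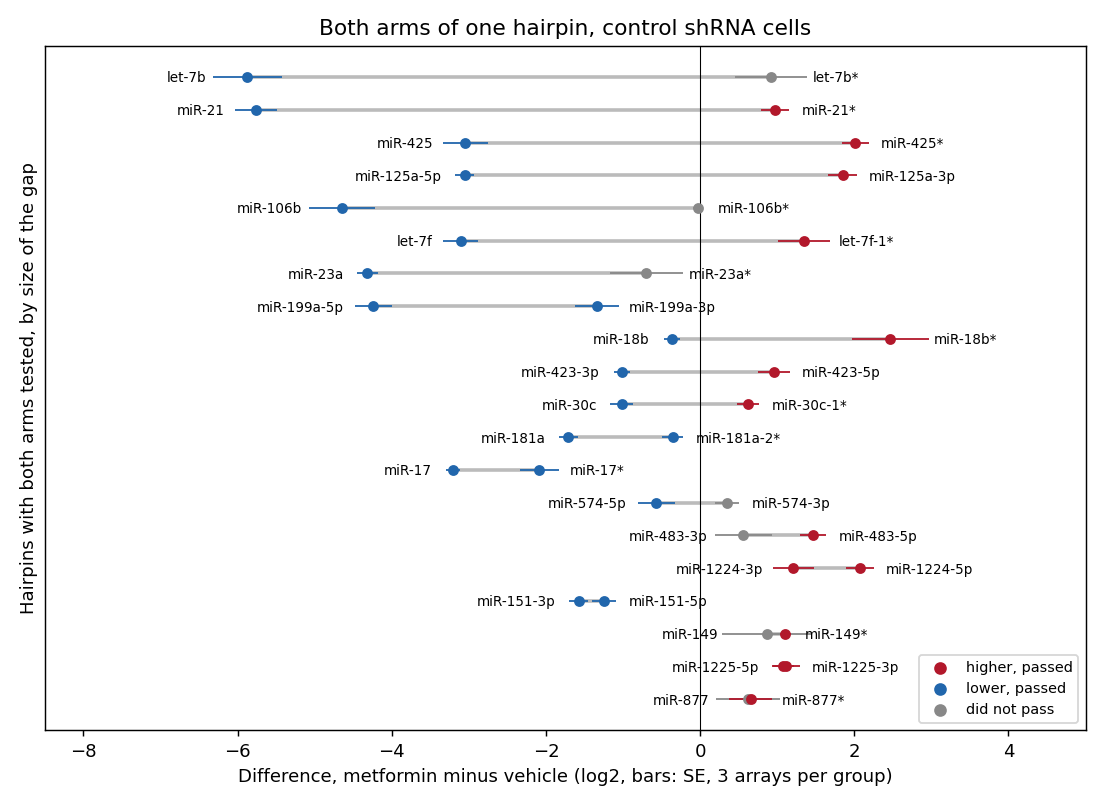
Difference, metformin minus vehicle in log2 (x axis, bars are SE, 3 arrays per group), of both arms of the 20 hairpins with both tested (y axis, ordered by the gap), with red and blue for calls and grey for arms that did not pass. The widest gaps are those of let-7b with let-7b* and of miR-21 with miR-21*, and let-7b* (0.92) did not pass.

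The mature sequences of higher names held more G and C than those of lower ones. The median was 60.9% of bases for the 82 higher names with a sequence and 47.8% for the 76 lower ones. Of the 22 names with 70% or more, 20 were higher and 1 lower. Of the 51 names between 40% and 50%, 16 were higher and 35 lower. Across the 180 names the correlation of G and C content with the difference was r = 0.43 (Spearman 0.44), as a description only, since these names share the arrays, the scaling and families. Over the 80 of them that were detected on all 6 arrays it was r = 0.41 (Spearman 0.52). The mean log2 vehicle signal, which is itself part of the difference, correlated with it at r = -0.49 (Spearman -0.46) over the 180. Over the 80 this was r = -0.38 (Spearman -0.22). The part of each was not tested. Exceptions to the order by G and C occurred in both directions. MiR-210, a hypoxia-induced microRNA with 63.6% G and C, read 51.0 to 51.8 under vehicle and was not detected with metformin (-4.09 log2, a bound set by the floor), and miR-664, with 39.1%, was higher. Its sequence and that of miR-210 are given for comparison with the GC-rich names above.
miR-210: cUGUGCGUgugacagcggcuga
miR-664: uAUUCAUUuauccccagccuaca

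**Figure D5:**
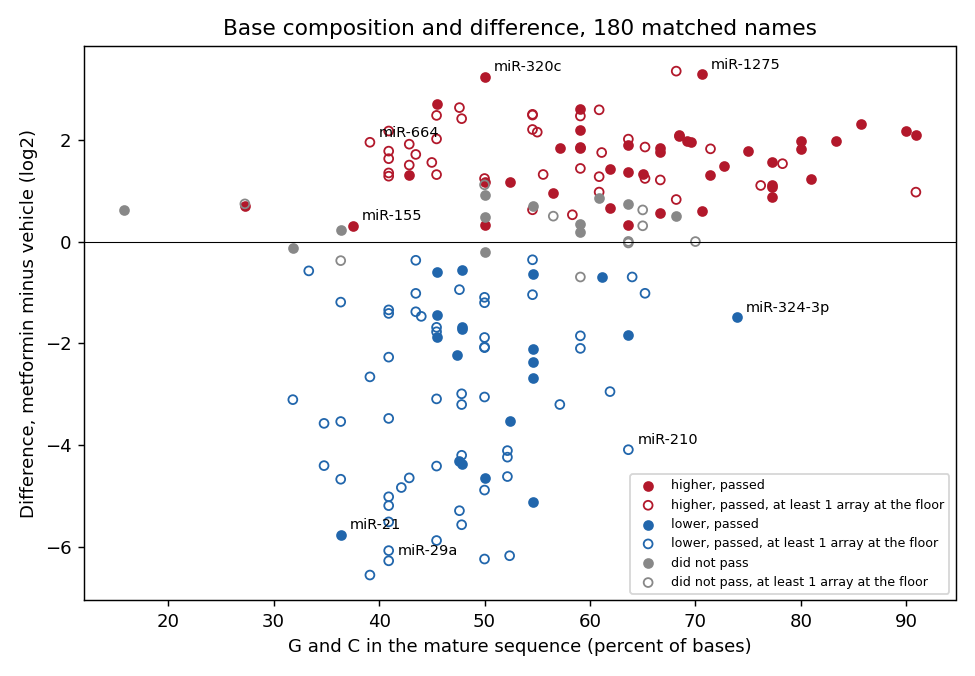
G and C in percent of the bases of the mature sequence (x axis) against the difference, metformin minus vehicle in log2 (y axis), for 180 names matched to RefSeq, with red and blue for calls, grey for names that did not pass and open circles for names with an array at the floor. Names at 70% or more lie almost wholly above 0, while those between 40% and 50% lie on both sides with more below.

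By share of signal without miR-923, 6 names stood among the first 10 in both groups. MiR-494 led under vehicle with 19.1% and held 7.76% with metformin. Its scaled signal was 5048, 5026 and 4246 under vehicle and 2923, 3352 and 3147 with metformin (-0.60 ± 0.10 log2). That call was lost without metformin replicate 1 (-0.19), and the difference was 1.22 under the scaling to reclassified entries. MiR-1202 held 6.91% and then 10.6%. The first 10 names of the metformin arrays held 75.2% of this signal there and 48.0% under vehicle.

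The same comparison in the Dicer shRNA line, on the same slides, gave smaller differences. The median absolute difference over the 208 names was 1.70 log2 in control shRNA cells and 0.32 in Dicer shRNA cells. In the Dicer shRNA line 51 names passed, and all 51 also passed in control shRNA cells with the same direction. The difference between the lines was tested as an interaction in limma, and 159 names passed (76.4%), 158 of them with the larger absolute difference in control shRNA cells. Some of these names, such as miR-107, lay at the floor in both Dicer shRNA groups and could not be lower there. For them the interaction repeats the control shRNA difference. MiR-21 differed by -5.76 log2 in control and by -1.15 in Dicer shRNA cells, and miR-1275 by 3.29 and 0.58. Across the 208 names the 2 sets of differences correlated with r = 0.83 (Spearman 0.80), as a description, since both rest on the same pair of slides.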

How the data were processed

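Human microRNAs were measured with Cy3 arrays of Agilent, 1 sample each, per the labels. The array files give, per the file headers, a linear total gene signal for every name (intensity) and a flag that says whether the name was detected. Per the submitters' processing notes the scanner software was Agilent Feature Extraction 9.1. How the background was treated is not given in the sources used here. The authors' files hold 0.1 for a name that was not detected. The authors' series matrix is in log2, with unknown normalization and centring, and was used as an alternative only. The label protocol describes a kit for mRNA.

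Every array was divided by its 75th percentile over the 98 human names detected on all 12 arrays. The floor of 3.01 (1.59 in log2) is the 5th percentile of the detected signals of an array, taken as the median of the 12 arrays. Lower values were raised to it before log2. For 208 names, 4 group means were fitted over 12 arrays with limma 3.58.1 (R 4.3.3, 8 residual degrees of freedom, prior 1.85), and a name passed when its p-value after Benjamini-Hochberg adjustment was under 0.05. Where a group lay at the floor on all arrays, the fold is at least the ratio to the floor under this scaling and floor. With 3 arrays in a group the precision is limited by their number. No replicate pair held identical values.

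The text names the 10 largest calls per direction detected on all 6 arrays with groups that do not overlap, the 6 largest bounds per direction, 10 fixed names where tested, the largest 2 members of each list with at least 3 tested members, and the 6 brightest names that did not pass. Other names (hairpin arms, miR-494, miR-1202, miR-210, miR-155, miR-378, miR-320a, miR-181a, miR-93, miR-106b, let-7g, miR-128, miR-22, miR-1274b and tissue markers) were chosen after their values were seen. The members and lists were chosen with earlier results of these data known. Sequences were matched to RefSeq by name, those on chr8 being left out, with older names mapped to arms by hand. Genes containing the sequences were taken from the same assembly. Alternatives covered scaling, floor, filter, weights, trend, replicate block, arrays used and left-out arrays. Figures used matplotlib 3.10.9, and the other software was pandas 2.3.3 on numpy 2.4.6 (Python 3.11.15), with data.table for R in version 1.17.8.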

Additional observations from a re-analysis of the deposited data

Results flagged for a closer look

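Several named microRNAs had a metformin difference that was not the same in the 2 lines, by the interaction test of limma over all 208 names (control shRNA minus Dicer shRNA, log2, 3 arrays per group). Of 86 named, 73 passed, with adjusted p from 5.0e-08 to 0.044, against 159 of all 208 names (76.4%). Many of the 86 were named for a large control shRNA difference, which is part of the interaction value. A high share was therefore built in and says nothing about these names in particular. The other 13 of the 86 did not pass, which does not show that the lines were alike. A value below 0 means that the metformin difference was lower in control shRNA than in Dicer shRNA cells. The values hold for the scaling used here, and the split of signs over all names changed with it, as given in the next section. For some names both Dicer shRNA groups lay at the floor, as for miR-107, let-7g, miR-128, miR-10b* and miR-1306. Their Dicer shRNA difference was 0, so the interaction value is their control shRNA difference alone. Those of them that were lower in control shRNA cells could not have been lower in the Dicer shRNA line. MiR-720 was -0.20 in control and 0.29 in Dicer shRNA cells, and miR-155 was 0.31 and -0.11. The values below 0 began with miR-29a -4.92, miR-21 -4.62, let-7b -4.39, miR-125b -4.29, miR-19b -4.17, miR-24 -4.01, miR-25 -3.91, miR-100 -3.73, miR-103 -3.73, let-7a -3.56, miR-1246 -3.56. They went on with let-7c -3.55, miR-29b -3.53, miR-146a -3.47, miR-23a -3.40, miR-106b -3.39, miR-221 -3.38, miR-23b -3.19, miR-210 -3.15, miR-27a -3.15, let-7f -3.08, miR-107 -2.99. In the same direction stood miR-15b -2.89, miR-222 -2.74, miR-27b -2.65, miR-1826 -2.43, miR-26a -2.36, miR-425 -2.31, miR-93 -2.27, miR-30e -2.24, miR-1287 -2.04, miR-1308 -2.03, miR-205 -1.90. Nearest to 0 among these were miR-16 -1.77, miR-320d -1.74, miR-125a-5p -1.45, miR-181a -1.20, miR-22 -1.20, miR-34a -1.20, let-7g -1.19, miR-30c -1.02, miR-128 -0.94, miR-720 -0.49, miR-18b -0.37. The values above 0 began with miR-370 2.72, miR-1275 2.71, miR-708 2.46, miR-320c 2.32, miR-630 2.29, miR-10b* 2.17, miR-664 2.11, miR-1181 1.98, miR-135a* 1.84, miR-425* 1.81, miR-939 1.80. They went on with miR-1915 1.77, miR-1306 1.75, miR-486-5p 1.72, miR-663 1.70, miR-125a-3p 1.52, miR-129-3p 1.49, miR-564 1.48, miR-198 1.41, miR-223 1.28, miR-134 1.25, miR-33a 1.25. Nearest to 0 among these were miR-133a 1.11, miR-923 0.86, miR-1202 0.75, miR-21* 0.64, miR-30c-1* 0.63, miR-320a 0.58, miR-155 0.42. The slides carried both lines, and the array positions of the lines differed, which cannot be told apart from the line here.

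A signal outside the human microRNAs was also seen. The 10 viral names detected on all 12 arrays were higher on the control shRNA metformin arrays by a median of 1.38 log2, and by 0.34 in the Dicer shRNA line.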

How the results depend on the processing

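The count of 183 calls ranged from 161 to 192 under the other scalings, floors, weights, trend, 6 arrays alone and series matrix values, and from 175 to 189 when 1 array was left out. Restricting the test to names detected on all 12 arrays gave 86 calls of 98, and on all 6 arrays 87 of 102, because fewer names were tested. The interaction gave 72 calls under both filters against 159, and 143 to 165 with 1 array left out. Its signs depended on the scaling. Of the 159 calls, 82 were above 0 and 77 below. With the viral names 135 passed, 21 above 0 and 114 below. With the reclassified entries 171 passed, 128 above 0 and 43 below. The 75th percentile over all human names was 0.1 on every array, so that alternative equals no scaling. With the replicate block, 181 names passed, 178 of them among the 183, and 157 for the interaction. Same-numbered arrays did not deviate together in every case (r = 0.35, -0.27 and 0.31 over 102 names), so the numbers were not taken as pairs. The difference of -29.7 detected names was -18.7 when only signals above the floor at the 10th percentile counted, and -35.3 to -21.3 with 1 array left out.

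Of 2320 settings over 86 named microRNAs, 2220 kept direction and side of the threshold. With no scaling, the sign turned for miR-574-3p (-0.024), miR-197 (-0.17), miR-155 (-0.060) and the median of the miR-320 family (-0.14). With quantile normalization it turned for miR-320b (0.37) and miR-365 (0.33). With the viral names it turned for miR-923 (-0.65), miR-574-3p (-1.20), miR-197 (-1.35), miR-548f (-0.93), let-7f-1* (-0.050), miR-21* (-0.57), miR-423-5p (-0.59), let-7b* (-0.63), miR-320a (-0.87), miR-155 (-1.24), miR-1202 (-0.24), miR-1274b (-0.44), and the medians of the miR-320 family (-1.32) and of the microprocessor-independent list (-0.21). With the reclassified entries it turned for miR-720 (1.62), miR-320b (1.62), miR-365 (1.69), miR-423-3p (0.31), miR-494 (1.22), miR-22 (0.38), miR-378 (1.18), miR-181a (0.11) and the median of the reclassified list (1.13). With the series matrix it turned for miR-365 (0.022), without control vehicle replicate 3 for miR-365 (0.04), and without control metformin replicate 1 for miR-720 (0.21), miR-320b (0.14) and miR-365 (0.21). Over all arrays left out in turn, these 3 ran from -0.30 to 0.21, from -0.22 to 0.14 and from -0.18 to 0.21. The cause was not tested. Precision is limited by 3 arrays per group and, for dim names, by the floor.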
